A study of Rattus norvegicus with 30 samples.

Results

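The collagen genes of this study are 25 of the 14506 genes measured. They are all genes whose symbol on the platform is Col, a number, the letter a and a number, each represented by its brightest probe set that carries a single gene symbol. By chain type, 10 encode fibrillar collagens (Col1a1, Col1a2, Col2a1, Col3a1, Col5a1, Col5a2, Col5a3, Col11a1, Col11a2 and Col27a1), 3 encode collagen IV of basement membranes (Col4a1, Col4a3 and Col4a4) and 12 encode other types. The other 12 are Col6a4, Col7a1, Col8a1, Col9a1, Col9a2, Col10a1, Col12a1, Col13a1, Col14a1, Col16a1, Col17a1 and Col23a1. Further collagen genes, such as Col4a2 and Col18a1, were not analysed here. The genes were picked by name, and the probe set of each by its mean over all arrays. The family was chosen with earlier results of these data known. No member was left out for a low level, and none had all its group means below 5.05 on the log2 scale, the 30th percentile of the gene means.

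A collagen is a triple helix of alpha chains that is folded and hydroxylated in the endoplasmic reticulum, secreted, trimmed and cross-linked outside the cell. Fibrillar collagens build the cable-like fibrils of interstitial matrix and are made mainly by fibroblasts, while collagen IV forms the sheet-like network under epithelia and around vessels. In the kidney, the alpha-3 and alpha-4 chains of collagen IV join the alpha-5 chain in a network best known from the glomerular filter and from Alport syndrome, and deposition of collagens I and III is a hallmark of renal fibrosis.

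The samples were primary cultures of rat inner medullary collecting duct (IMCD) cells, epithelial cells of a kidney region whose osmolality rises when urine is concentrated. Total RNA was hybridised to 30 arrays, in 10 groups of 3. Cells kept at 300, 600 or 900 mosmol/kg are called steady 300, steady 600 and steady 900. Cells moved between osmolalities were taken 3, 12, 24 or 48 h after a change from 300 to 600 mosmol/kg (300-to-600), 12 or 24 h after a change from 600 to 900 mosmol/kg (600-to-900), or 24 h after a change from 900 to 300 mosmol/kg (900-to-300). The treatment field of all 30 samples names 5 µM cyclosporin A, a calcineurin inhibitor, whereas no title names it. The labels therefore do not settle which cultures received it, and the groups are taken as treated alike. Primary cultures can hold other cells of the medulla, the labels do not say how many animals were pooled, and steady and moved cultures may differ in more than the time at the final osmolality.

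The 30 arrays each had their nearest array within their own group, and correlations within groups were 0.991 to 0.998. All 12 epithelial markers measured lay above the dim level in each group of steady cells. Of 15 principal cell markers, 12 were higher (20.2% of all genes) and 1 lower (22.3% of all genes) in steady 900 than in steady 300. In the text a gene rose or fell when limma's adjusted p, over all 14506 genes, was under 0.05. Changes are log2 differences ± standard error (SE) between group means of 3 arrays. Single array values are deposited log2 values, given in the order of replicates 1, 2 and 3, or 1, 2 and 9 for the 600-to-900 and 900-to-300 groups. Levels of different genes are not compared, because probe sets differ in their response.

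Among the 10 groups, 19 of the 25 collagen genes differed by limma's moderated F test, against 73.7% of all genes tested. The 6 that did not pass were Col6a4, Col9a1, Col9a2, Col10a1, Col11a2 and Col23a1. A share near that of all genes is no result about collagens, so the sizes and directions follow.

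Cells kept at higher osmolality had less RNA of most fibrillar collagen genes and more RNA for the alpha-3 and alpha-4 chains of collagen IV. In steady 900 against steady 300, 13 of the 25 genes fell (22.3% of all genes fell) and 2 rose (20.2% of all genes rose). Of the 10 fibrillar genes 8 fell and none rose, with a median log2 change of −1.71, where the median of all genes was 0.00. At least 2-fold changes were 9 decreases (5.47% of all genes) and 2 increases (4.78% of all genes). In steady 600 against steady 300, 10 fell (13.4% of all genes) and 3 rose (13.7%), and without steady 600 replicate 1 the counts were 5 lower and 3 higher. In steady 900 against steady 600, 12 fell (12.9%) and 2 rose (11.3%). These comparisons share control arrays in pairs. In RNA of whole cultures, fewer cells of a type and less RNA per cell cannot be told apart.

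Markers of fibroblasts and leukocytes mostly fell, like the fibrillar genes, while epithelial and endothelial markers moved both ways. In steady 900 against steady 300, 20.2% of all genes rose and 22.3% fell. Of 19 markers of fibroblasts and myofibroblasts, 13 fell and none rose in steady 900 against steady 300, and their mean log2 level was 6.17 to 6.27 over the steady 900 arrays and 7.91 to 7.96 over the steady 300 arrays. Their summed linear signal was 5294 to 5479 in steady 900, against 22718 to 23239 in steady 300. Array values have no true 0. In steady 900, Cnn1, Fap, Lum, Mfap4, Mfap5 and Postn lay below the dim level, and in steady 300 Lum, Mfap4 and Mfap5 did. Postn, a matrix protein of activated fibroblasts, changed by −5.66 ± 0.13 (SE, adjusted p = 7.35e-24) and Thy1, a fibroblast surface protein, by −4.25 ± 0.10 (SE, adjusted p = 2.48e-23). Of 12 leukocyte markers, 10 fell and 1 rose. Of 12 epithelial markers 5 rose and 3 fell, and of 9 endothelial markers 3 rose and 2 fell. The part of these cells in the collagen changes was not tested.

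Type I collagen, the main fibril collagen of interstitial matrix, is built from the products of Col1a1 and Col1a2. Col1a1 had 11.25, 11.27 and 11.24 in steady 300, 10.60, 10.83 and 10.97 in steady 600 and 8.17, 8.18 and 8.14 in steady 900. The arrays of the 3 groups did not overlap and fell with osmolality. The change of Col1a1 in steady 900 over steady 300 was −3.09 ± 0.13 (SE, adjusted p = 7.36e-18), 8.5-fold lower. Col1a2 had 11.50, 11.58 and 11.55 in steady 300, 11.07, 11.20 and 11.31 in steady 600 and 8.93, 8.91 and 8.97 in steady 900. Col1a2 was 6.08-fold lower in steady 900 than in steady 300, a log2 change of −2.60 ± 0.10 (SE, adjusted p = 6.72e-19). Most of the decrease of both chains lay between steady 600 and steady 900, where the changes were −2.64 ± 0.13 (SE, adjusted p = 2.73e-15) for Col1a1 and −2.26 ± 0.10 (SE, adjusted p = 2.21e-16) for Col1a2. In steady 600 against steady 300 they were −0.45 ± 0.13 (SE, adjusted p = 0.0108) and −0.35 ± 0.10 (SE, adjusted p = 0.00938). The call of Col1a1 was lost without steady 600 replicate 1 (−0.35, adjusted p = 0.0882, with 0.00479 to 0.0882 over its alternatives). The call of Col1a2 was lost without steady 600 replicate 1 (−0.29, adjusted p = 0.0666, with 0.00378 to 0.0666 over its alternatives).

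Col3a1 encodes the single chain of collagen III, which forms fibrils with collagen I in stretchable tissue. Col3a1 had 9.94, 10.01 and 10.05 in steady 300, 10.11, 10.24 and 10.29 in steady 600 and 8.30, 8.40 and 8.25 in steady 900. Steady 900 was far below both other groups, −1.68 ± 0.08 (SE, adjusted p = 2.69e-17) against steady 300 and −1.89 ± 0.08 (SE, adjusted p = 3.3e-17) against steady 600. In steady 600 Col3a1 was slightly higher than in steady 300, by 0.21 ± 0.08 (SE, adjusted p = 0.0395), opposite in sign to the 6 other fibrillar genes called there. The call of Col3a1 was lost with median centring or cyclic loess, or without steady 300 replicate 1, 2 or 3 or steady 600 replicate 2 or 3 (log2 changes 0.17 to 0.24, adjusted p = 0.0509 to 0.17, with 0.0223 to 0.17 over its alternatives). Col3a1 and Col5a2 are neighbours, with 0 protein-coding genes wholly between them in the GRCr8 annotation of RefSeq.

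Collagen V is a minor fibril component that sets the start and the width of collagen I fibrils. Col5a1 had 8.19, 8.23 and 8.25 in steady 300, 7.58, 7.67 and 7.83 in steady 600 and 6.48, 6.34 and 6.62 in steady 900. Col5a2 had 9.21, 9.26 and 9.22 in steady 300, 8.76, 8.96 and 9.03 in steady 600 and 7.08, 7.15 and 7.09 in steady 900. Col5a3 had 7.24, 7.13 and 7.32 in steady 300, 6.93, 6.89 and 7.01 in steady 600 and 6.29, 6.07 and 6.38 in steady 900. The 3 chains were ordered alike, highest in steady 300 and lowest in steady 900, with no overlap of the arrays. In steady 900 over steady 300, Col5a1 changed by −1.74 ± 0.10 (SE, adjusted p = 2.24e-15), Col5a2 by −2.13 ± 0.07 (SE, adjusted p = 4.31e-20) and Col5a3 by −0.98 ± 0.10 (SE, adjusted p = 7.89e-10). In steady 600 over steady 300 the changes were −0.54 ± 0.10, −0.31 ± 0.07 and −0.28 ± 0.10 (SE), with adjusted p of 5.54e-05, 0.00133 and 0.027. The call of Col5a3 was lost without steady 300 replicate 1 or 3 or steady 600 replicate 1 or 2 (log2 changes −0.28 to −0.24, adjusted p = 0.0683 to 0.124, with 0.0124 to 0.124 over its alternatives).

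Col11a1 encodes a chain of collagen XI, which nucleates fibrils, best known from cartilage. Col11a1 had 11.55, 11.62 and 11.58 in steady 300, 10.04, 10.46 and 10.47 in steady 600 and 6.91, 6.88 and 6.92 in steady 900. It had the largest range of group means of all 25 members. In steady 900 over steady 300 it changed by −4.68 ± 0.10 (SE, adjusted p = 1.56e-24), 25.7-fold lower, and in steady 600 over steady 300 by −1.26 ± 0.10 (SE, adjusted p = 1.96e-11). Col11a2, which encodes another chain of collagen XI, had 6.29, 6.17 and 6.36 in steady 900 and 6.39, 6.46 and 6.43 in steady 300. Its change of −0.15 ± 0.09 (SE, adjusted p = 0.191, 95% interval −0.33 to 0.03) did not pass the test. Upstream sequences of 250 bases from the RefSeq table of build GRCr8 are shown for 2 fibrillar genes that fell in steady 900 and differed in the time course. That of Col1a2 lies at chr4:33518307-33518556 on the plus strand and that of Col11a1 at chr2:204508886-204509135 on the plus strand, both read 5′ to 3′. Capitals mark the CCAAT box, the TATA box spelled TATAAA and the GC box spelled GGGCGG, each searched on both strands (ATTGG is the CCAAT box read from the other strand). The marked matches do not overlap.
Col1a2: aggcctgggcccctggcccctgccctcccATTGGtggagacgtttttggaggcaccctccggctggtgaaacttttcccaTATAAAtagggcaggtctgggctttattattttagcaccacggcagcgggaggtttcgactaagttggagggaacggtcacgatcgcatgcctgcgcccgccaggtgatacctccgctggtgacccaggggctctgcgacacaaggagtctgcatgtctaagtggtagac
Col11a1: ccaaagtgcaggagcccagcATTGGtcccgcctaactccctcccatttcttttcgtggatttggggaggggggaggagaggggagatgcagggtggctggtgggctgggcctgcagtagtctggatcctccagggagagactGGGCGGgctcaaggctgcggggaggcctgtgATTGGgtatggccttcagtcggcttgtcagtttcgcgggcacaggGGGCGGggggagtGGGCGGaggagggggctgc
The Col1a2 window holds 1 CCAAT box and 1 TATA box. The Col11a1 window holds 2 CCAAT boxes and 3 GC boxes. Of 33465 windows of 250 bases, 34% held the CCAAT box, 12.9% the TATA box and 30.5% the GC box. Of the 20 collagen genes with a window, 7 held the CCAAT box, 4 the TATA box and 11 the GC box. The tonicity element, the binding motif of the osmolality-responsive factor NFAT5, was found in 2 of them, Col10a1 and Col11a2, and in 5.17% of all windows. A match of letters is a description and no sign of binding. Where transcription starts relative to the windows was not tested, so a window may hold transcribed bases.

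The remaining fibrillar genes changed little. Col2a1, whose product is the main cartilage collagen, changed by −0.25 ± 0.08 (SE, adjusted p = 0.0111) in steady 900 over steady 300. The call of Col2a1 was lost without steady 300 replicate 1 or steady 900 replicate 2 (log2 changes −0.20 to −0.17, adjusted p = 0.0717 to 0.128, with 0.00302 to 0.128 over its alternatives). Col27a1, which encodes the chain of collagen XXVII of cartilage, did not pass the test (−0.13, adjusted p = 0.405).

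**Figure D1:**
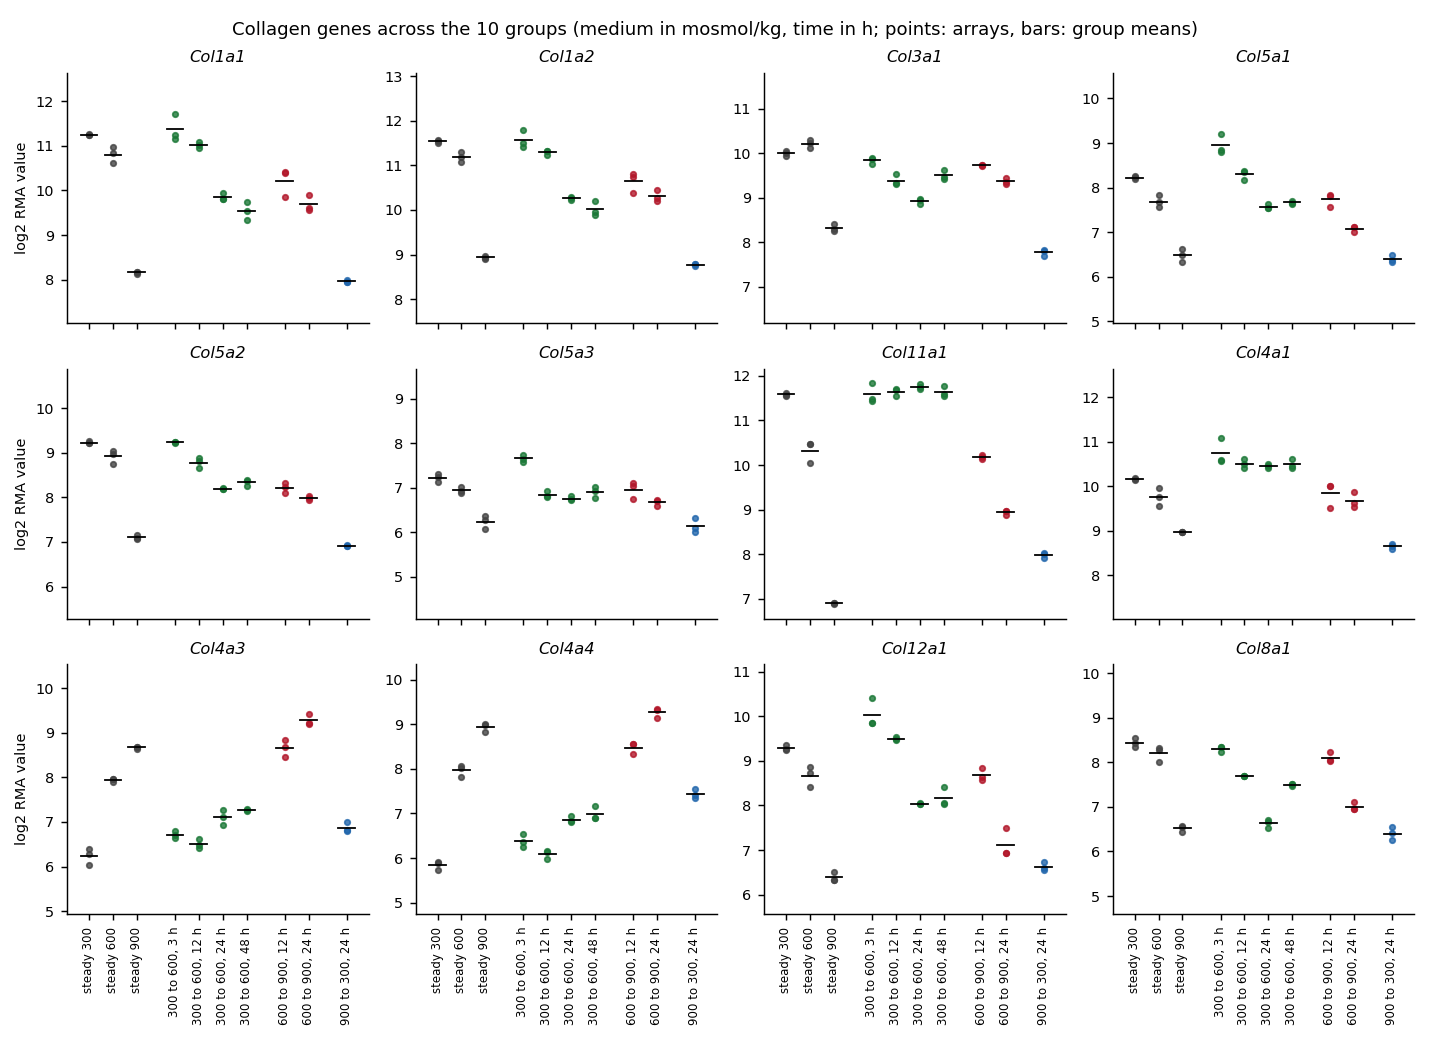
Deposited log2 values of each array (points) and group means (bars) of 12 collagen genes over the 10 groups, with the steady groups at the left of each panel, then 300-to-600, 600-to-900 and 900-to-300. Col1a1, Col1a2, Col3a1, the type V chains, Col11a1, Col12a1 and Col8a1 have their lowest 2 group means in steady 900 and 900-to-300, whereas Col4a3 and Col4a4 are highest in 600-to-900 at 24 h.

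The collagen IV genes moved in opposite directions. Col4a3 and Col4a4 encode chains of the alpha-3, alpha-4, alpha-5 network, and Col4a1 encodes a chain of the widespread alpha-1, alpha-2 network. Col4a3 had 6.27, 6.40 and 6.04 in steady 300, 7.96, 7.89 and 7.97 in steady 600 and 8.68, 8.69 and 8.64 in steady 900. Col4a4 had 5.74, 5.92 and 5.89 in steady 300, 8.03, 7.83 and 8.07 in steady 600 and 9.01, 8.98 and 8.82 in steady 900. Both rose at each level without overlap of the arrays. In steady 900 over steady 300, Col4a3 was 5.4-fold higher, 2.43 ± 0.10 (SE, adjusted p = 3.11e-18), and Col4a4 8.5-fold higher, 3.09 ± 0.10 (SE, adjusted p = 6.92e-21). Most of that increase was already present in steady 600, 1.70 ± 0.10 (SE, adjusted p = 4.07e-14) and 2.13 ± 0.10 (SE, adjusted p = 1.41e-16) over steady 300. Col4a1 had 10.13, 10.16 and 10.19 in steady 300, 9.56, 9.76 and 9.96 in steady 600 and 8.97, 8.97 and 8.98 in steady 900. Col4a1 fell by 1.19 on the log2 scale in steady 900 against steady 300 (SE 0.12, adjusted p = 2.88e-09). In steady 600 over steady 300 its change was −0.40 ± 0.12 (SE, adjusted p = 0.0145). The call of Col4a1 was lost without steady 600 replicate 1 (−0.30, adjusted p = 0.116, with 0.00551 to 0.116 over its alternatives).

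Col4a3 and Col4a4 lie head to head on rat chromosome 9, on opposite strands with 0 protein-coding genes wholly between them. Their upstream windows share 88 bases (chr9:91323740-91323827, GRCr8). The windows are shown because both genes moved together. That of Col4a3 lies at chr9:91323740-91323989 on the plus strand and that of Col4a4 at chr9:91323578-91323827 on the minus strand, each read 5′ to 3′ on its own strand, with the shared stretch in capitals.
Col4a3: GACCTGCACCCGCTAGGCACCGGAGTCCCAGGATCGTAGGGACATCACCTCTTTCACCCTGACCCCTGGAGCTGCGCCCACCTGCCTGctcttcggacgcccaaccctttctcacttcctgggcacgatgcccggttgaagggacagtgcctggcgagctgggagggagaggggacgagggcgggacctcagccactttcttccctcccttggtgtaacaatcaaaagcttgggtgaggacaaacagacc
Col4a4: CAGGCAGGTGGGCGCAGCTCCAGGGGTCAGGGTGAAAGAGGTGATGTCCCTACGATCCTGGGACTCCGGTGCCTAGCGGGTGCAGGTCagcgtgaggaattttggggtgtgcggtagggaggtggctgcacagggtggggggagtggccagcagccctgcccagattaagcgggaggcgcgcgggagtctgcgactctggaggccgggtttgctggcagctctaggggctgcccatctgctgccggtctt
The Col4a3 window holds 1 GC box, and no match to the tonicity element was found in either window. The capitals of Col4a4 are the reverse complement of those of Col4a3.

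Among the other types, 4 of 12 fell (22.3% of all genes) and none rose (20.2% of all genes) in steady 900 against steady 300. Col12a1 encodes collagen XII, which binds along collagen I fibrils. Col12a1 had 9.23, 9.36 and 9.27 in steady 300, 8.42, 8.72 and 8.85 in steady 600 and 6.34, 6.51 and 6.33 in steady 900. Its change in steady 900 over steady 300 was −2.90 ± 0.14 (SE, adjusted p = 1.06e-16), 7.45-fold lower. Col8a1 encodes a chain of collagen VIII, a short-chain network collagen of vessel walls and the cornea. Col8a1 had 8.54, 8.42 and 8.34 in steady 300, 8.003, 8.31 and 8.29 in steady 600 and 6.44, 6.56 and 6.56 in steady 900. It changed by −1.91 ± 0.09 (SE, adjusted p = 3.31e-17) in steady 900 over steady 300 and by −0.23 ± 0.09 (SE, adjusted p = 0.0479) in steady 600 over steady 300. The call of Col8a1 was lost with a fit to only the arrays compared, or without steady 300 replicate 1 or 2 or steady 600 replicate 1 (log2 changes −0.24 to −0.13, adjusted p = 0.092 to 0.345, with 0.0205 to 0.345 over its alternatives). Col7a1, the anchoring fibril collagen of skin, changed by −0.51 ± 0.09 (SE, adjusted p = 1.8e-05) and Col14a1, another collagen that binds fibrils, by −0.71 ± 0.12 (SE, adjusted p = 9.62e-06) in steady 900 over steady 300. Over all 30 arrays, Col7a1 ranged between 6.16 and 7.37 and Col14a1 between 4.38 and 5.70, and all 3 steady 900 arrays of Col14a1 lay below the dim level. The size of its change is therefore uncertain. The other 8 genes, Col6a4, Col9a1, Col9a2, Col10a1, Col13a1, Col16a1, Col17a1 and Col23a1, did not pass the test, with log2 changes of −0.14 to 0.14.

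**Figure D2:**
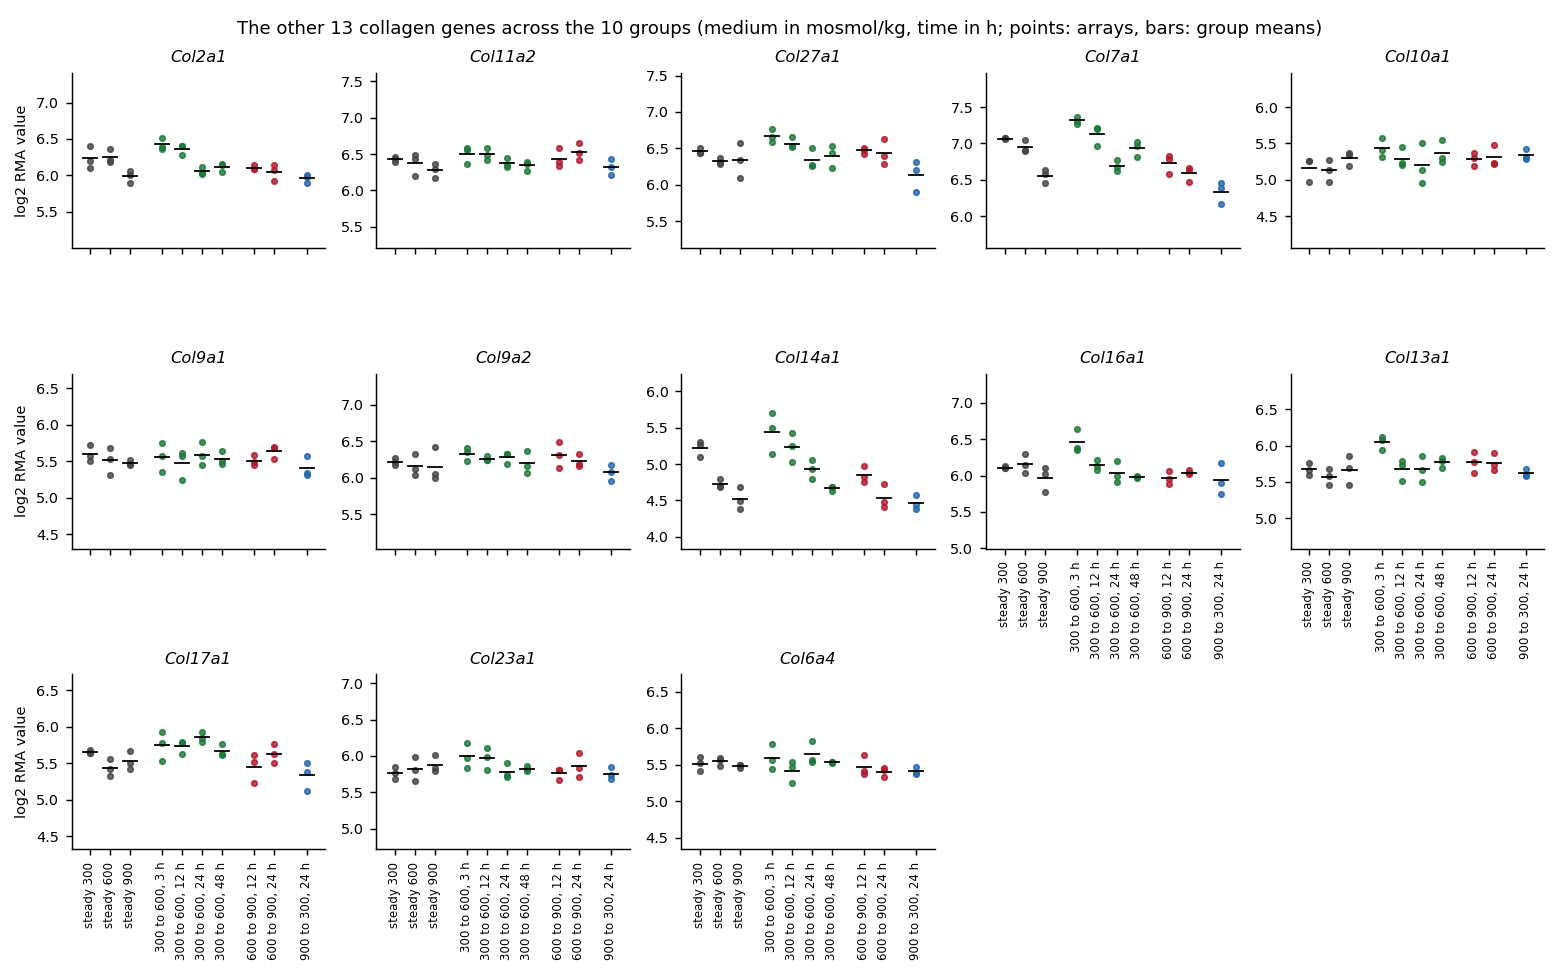
Deposited log2 values of each array (points) and group means (bars) of the other 13 collagen genes over the 10 groups. The group means of each of these genes stay within 1 log2 unit, with the widest ranges for Col7a1 and Col14a1.

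After a change from 300 to 600 mosmol/kg the called changes of collagen genes were all increases at 3 h, and at 24 h decreases except for the alpha-3 and alpha-4 chains of collagen IV. At 3 h 9 of the 25 genes were higher than in steady 300 (12.1% of all genes) and none was lower (29.5% of all genes). The 9 were Col5a1, Col5a3, Col4a1, Col4a3, Col4a4, Col7a1, Col12a1, Col13a1 and Col16a1. The shares of all genes at 3 h depended on the scaling. Lower were 4282 genes with the deposited values, 3080 with quantile normalization, 3022 with cyclic loess and 4484 with median centring. Higher were 1759, 2199, 2091 and 1522 genes in the same order. At 12 h 3 collagen genes were higher (11.9%) and 4 lower (22.6%). At 24 h 2 were higher (9.4%) and 9 lower (13%), and at 48 h 2 were higher (9.57%) and 9 lower (12%). Between neighbouring times, 11 fell and none rose at 12 h against 3 h (17.8% and 23.1% of all genes). At 24 h against 12 h 2 rose and 9 fell (17.5% and 9.51% of all genes). At 48 h against 24 h 2 rose and none fell (1.88% and 0.917%). The counts at 12 h depended on single arrays: without steady 300 replicate 1 or replicate 3, or with each array centred on its median, 4 genes were called against steady 300, all lower, and without 300-to-600 12 h replicate 2, 7 were called against 3 h. Of the fibroblast markers, 12 of 19 fell and none rose at 24 h against steady 300. Of 12 leukocyte markers 0 rose and 8 fell, and of 9 endothelial markers 1 rose and 7 fell. The part of these cells in the collagen changes was not tested.

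The type I chains were lower than in steady 300 at 24 and 48 h. Col1a1 had 11.24, 11.16 and 11.71 at 3 h, 11.08, 11.02 and 10.96 at 12 h, 9.81, 9.93 and 9.81 at 24 h and 9.53, 9.35 and 9.74 at 48 h. Its change against steady 300 was −1.40 ± 0.13 (SE, adjusted p = 1.8e-09) at 24 h and −1.71 ± 0.13 (SE, adjusted p = 3.51e-11) at 48 h. Col1a2 had 11.51, 11.40 and 11.78 at 3 h, 11.31, 11.24 and 11.32 at 12 h, 10.26, 10.30 and 10.22 at 24 h and 9.95, 9.90 and 10.19 at 48 h. Its change was −1.28 ± 0.10 (SE, adjusted p = 4.21e-11) at 24 h and −1.53 ± 0.10 (SE, adjusted p = 1.14e-12) at 48 h. At both times all arrays lay below all steady 300 arrays. At 12 h the changes of −0.23 and −0.25 against steady 300 did not pass the test (adjusted p = 0.185 and 0.0558). The 12 h change of Col1a1 passed the test in a fit to only the arrays compared (adjusted p = 0.0224, with 0.0224 to 0.345 over its alternatives). That of Col1a2 passed the test with a filter on dim genes, with a trended robust variance and in a fit to only the arrays compared (adjusted p = 0.0169 to 0.0384, with 0.0169 to 0.198 over its alternatives).

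Col3a1 had 9.90, 9.77 and 9.87 at 3 h, 9.53, 9.33 and 9.31 at 12 h, 8.94, 8.97 and 8.85 at 24 h and 9.43, 9.46 and 9.63 at 48 h. Col3a1 was lowest at 24 h, −1.08 ± 0.08 (SE, adjusted p = 4.6e-12) against steady 300, and higher again at 48 h, by 0.58 ± 0.08 (SE, adjusted p = 7.6e-06) against 24 h. Col8a1 had 8.22, 8.35 and 8.35 at 3 h, 7.69, 7.69 and 7.70 at 12 h, 6.54, 6.71 and 6.66 at 24 h and 7.48, 7.52 and 7.51 at 48 h. Col8a1 was also lowest at 24 h, −1.80 ± 0.09 (SE, adjusted p = 1.94e-15) at 24 h against steady 300 and 0.87 ± 0.09 (SE, adjusted p = 7.95e-08) at 48 h against 24 h. These were the 2 collagen genes that rose at 48 h against 24 h. In the same comparison 8 rose and 0 fell of 9 endothelial markers, 3 rose and 0 fell of 12 leukocyte markers and 3 rose and 1 fell of 19 fibroblast markers (1.88% of all genes rose and 0.917% fell). The median log2 change of the endothelial markers was 0.61, and their part was not tested.

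Col5a1 and Col12a1 rose early and then fell. Col5a1 had 8.85, 8.80 and 9.20 at 3 h, 8.37, 8.35 and 8.18 at 12 h, 7.54, 7.55 and 7.63 at 24 h and 7.64, 7.65 and 7.71 at 48 h. The log2 change of Col5a1 against steady 300 was 0.73 ± 0.10 (SE, adjusted p = 7.76e-07) at 3 h and −0.66 ± 0.10 (SE, adjusted p = 4.23e-06) at 24 h. Col12a1 had 9.86, 9.85 and 10.40 at 3 h, 9.48, 9.54 and 9.48 at 12 h, 8.03, 8.06 and 8.02 at 24 h and 8.05, 8.04 and 8.42 at 48 h. That of Col12a1 was 0.75 ± 0.14 (SE, adjusted p = 8.3e-05) at 3 h and −1.25 ± 0.14 (SE, adjusted p = 4e-08) at 24 h. Col5a3 had 7.66, 7.58 and 7.73 at 3 h, 6.93, 6.79 and 6.82 at 12 h, 6.81, 6.73 and 6.74 at 24 h and 6.78, 6.93 and 7.01 at 48 h. Col5a3 changed by 0.43 ± 0.10 (SE, adjusted p = 0.000682) at 3 h and by −0.38 ± 0.10 (SE, adjusted p = 0.00226) at 12 h. Col5a2 had 9.23, 9.25 and 9.25 at 3 h, 8.88, 8.66 and 8.81 at 12 h, 8.20, 8.21 and 8.18 at 24 h and 8.38, 8.26 and 8.38 at 48 h. Col5a2 did not pass the test at 3 h (0.01, 95% interval −0.14 to 0.16) and changed by −1.03 ± 0.07 (SE, adjusted p = 4.6e-12) at 24 h. The 3 h change of Col5a2 passed the test with cyclic loess (adjusted p = 0.0483, with 0.0483 to 0.971 over its alternatives). In the 3 h group, replicate 3 was the highest of the 3 arrays for 13 of the 25 collagen genes. Col13a1, a transmembrane collagen, changed by 0.37 ± 0.10 (SE, adjusted p = 0.00494) at 3 h, Col16a1 by 0.35 ± 0.10 (SE, adjusted p = 0.00741) and Col7a1 by 0.25 ± 0.09 (SE, adjusted p = 0.0243). The call of Col7a1 was lost without steady 300 replicate 1, 2 or 3 or 300-to-600 3 h replicate 1 (log2 changes 0.23 to 0.25, adjusted p = 0.0529 to 0.08, with 0.000969 to 0.08 over its alternatives). The call of Col16a1 was lost without 300-to-600 3 h replicate 1 (0.25, adjusted p = 0.0719, with 0.00124 to 0.0719 over its alternatives).

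No change of Col11a1 passed the test in these 48 h. Col11a1 had 11.44, 11.49 and 11.84 at 3 h, 11.70, 11.69 and 11.56 at 12 h, 11.75, 11.70 and 11.82 at 24 h and 11.59, 11.54 and 11.76 at 48 h. Its log2 changes against steady 300 were 0.01, 0.06, 0.17 and 0.05, with adjusted p of 0.969, 0.668, 0.242 and 0.811. The 95% interval of the change at 48 h was −0.15 to 0.25. Against steady 600, which has the same final osmolality, the change at 48 h was 1.31 ± 0.10 (SE, adjusted p = 1.34e-11), and all 3 arrays lay above all steady 600 arrays.

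Col4a3 had 6.64, 6.71 and 6.80 at 3 h, 6.41, 6.63 and 6.48 at 12 h, 7.12, 7.28 and 6.92 at 24 h and 7.28, 7.30 and 7.26 at 48 h. Col4a4 had 6.24, 6.35 and 6.54 at 3 h, 6.14, 6.17 and 5.98 at 12 h, 6.84, 6.94 and 6.81 at 24 h and 7.17, 6.91 and 6.89 at 48 h. Both chains of collagen IV were higher than in steady 300 at each time, by 0.87 ± 0.10 (SE, adjusted p = 7.69e-08) and 1.02 ± 0.10 (SE, adjusted p = 2.49e-09) at 24 h and by 1.04 ± 0.10 (SE, adjusted p = 3.1e-09) and 1.14 ± 0.10 (SE, adjusted p = 2.94e-10) at 48 h. At 12 h the increases were smaller, 0.27 ± 0.10 (SE, adjusted p = 0.0375) and 0.25 ± 0.10 (SE, adjusted p = 0.0485). The 12 h call of Col4a3 was lost with median centring or a fit to only the arrays compared, or without steady 300 replicate 1 or 3 or 300-to-600 12 h replicate 2 or 3 (log2 changes 0.17 to 0.29, adjusted p = 0.0575 to 0.252, with 0.0153 to 0.252 over its alternatives). That of Col4a4 was lost with median centring, or without steady 300 replicate 1, 2 or 3 or 300-to-600 12 h replicate 1 or 2 (log2 changes 0.19 to 0.28, adjusted p = 0.0543 to 0.197, with 0.0244 to 0.197 over its alternatives). Col4a1 had 10.57, 10.59 and 11.08 at 3 h, 10.49, 10.60 and 10.40 at 12 h, 10.40, 10.50 and 10.46 at 24 h and 10.46, 10.40 and 10.62 at 48 h. Col4a1 was higher than in steady 300 at 3 h, by 0.58 ± 0.12 (SE, adjusted p = 0.000371), and at 12 h, by 0.34 ± 0.12 (SE, adjusted p = 0.0347). At 24 and 48 h its log2 changes of 0.29 and 0.33 did not pass the test (adjusted p = 0.094 at 24 h). The 24 h change passed in a fit to only the arrays compared (adjusted p = 0.00549). The 48 h change passed in that fit, with median centring, with a filter on dim genes and with a trended robust variance (adjusted p = 0.00916 to 0.0474). The 12 h call of Col4a1 was lost with median centring, or without steady 300 replicate 1, 2 or 3 or 300-to-600 12 h replicate 1 or 2 (log2 changes 0.29 to 0.35, adjusted p = 0.0502 to 0.124, with 0.00712 to 0.124 over its alternatives).

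**Figure D3:**
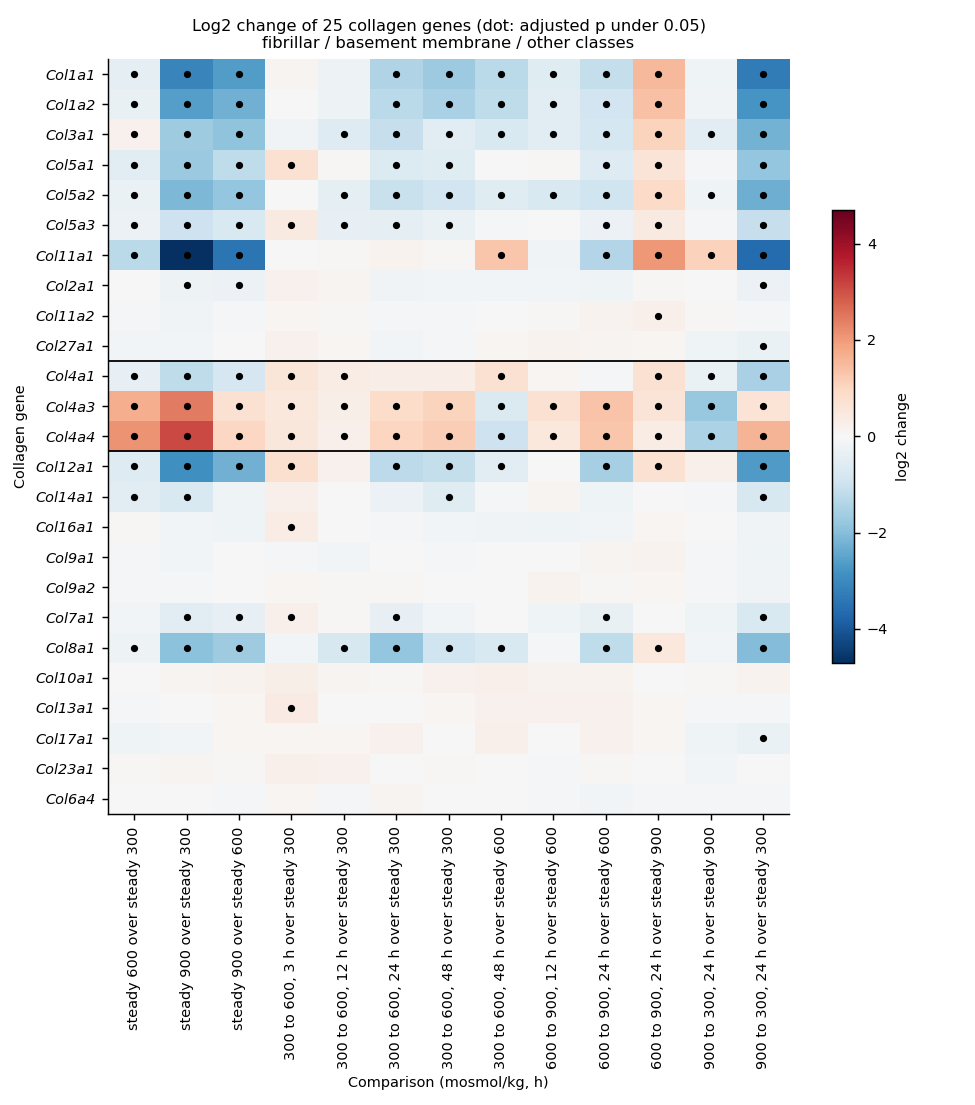
Log2 changes of the 25 collagen genes (rows, in the order fibrillar, basement membrane and other types) in 13 comparisons (columns), in red where the first group is higher and in blue where it is lower, with a dot where adjusted p was under 0.05. In steady 900 over steady 300, 8 of 10 fibrillar rows carry a dot in blue, and Col4a3 and Col4a4 carry the only dots in red. Their changes are negative against steady 600 at 48 h and in 900-to-300 over steady 900.

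At 48 h after the change the levels still differed from those of steady 600. Against steady 600, 2 genes were higher (9.47% of all genes) and 8 lower (12.5%). Col11a1 and Col4a1 were the higher ones, Col4a1 by 0.73 ± 0.12 (SE, adjusted p = 3.46e-05). Col1a1 (−1.27 ± 0.13 SE, adjusted p = 1.05e-08), Col1a2 (−1.18 ± 0.10 SE, adjusted p = 1.78e-10) and Col3a1 (−0.71 ± 0.08 SE, adjusted p = 1.94e-08) were lower. Col4a3 (−0.66 ± 0.10 SE, adjusted p = 6.81e-06) and Col4a4 (−0.98 ± 0.10 SE, adjusted p = 4.1e-09) were also lower, between their steady 300 and steady 600 levels. The change of Col12a1 was −0.49 ± 0.14 (SE, adjusted p = 0.0094). The call of Col12a1 was lost without steady 600 replicate 3 or 300-to-600 48 h replicate 1 or 2 (log2 changes −0.43 to −0.40, adjusted p = 0.0542 to 0.0731, with 0.00303 to 0.0731 over its alternatives).

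After a change from 600 to 900 mosmol/kg, 2 collagen genes were higher (12.5% of all genes) and 4 lower (25.3%) at 12 h than in steady 600, and 2 were higher (11.2%) and 10 lower (14.7%) at 24 h. The 2 higher genes at both times were Col4a3 and Col4a4. The 4 lower genes at 12 h were Col1a1, Col1a2, Col3a1 and Col5a2. At 24 h against 12 h 2 rose (21%) and 10 fell (11.5%). At 24 h 13 genes were higher than in steady 900 (9.47%) and none was lower (8.83%). The higher genes included Col4a3 and Col4a4, which were lower in steady 600 than in steady 900. Col11a2 was also among them, with 0.25 ± 0.09 (SE, adjusted p = 0.0481). The call of Col11a2 was lost with a trended robust variance or a fit to only the arrays compared, or without steady 900 replicate 1 or 2 or 600-to-900 24 h replicate 1 or 2 (log2 changes 0.19 to 0.26, adjusted p = 0.0612 to 0.228, with 0.0232 to 0.228 over its alternatives). Fibroblast markers fell in 12 and rose in 1 of 19 at 24 h against steady 600. Of 12 leukocyte markers 0 rose and 9 fell, and of 9 endothelial markers 1 rose and 5 fell. Their part was not tested.

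Col1a1 had 10.39, 10.41 and 9.85 at 12 h and 9.56, 9.89 and 9.61 at 24 h. The change of Col1a1 against steady 600 was −0.58 ± 0.13 (SE, adjusted p = 0.000693) at 12 h and −1.12 ± 0.13 (SE, adjusted p = 1.21e-07) at 24 h. Col1a2 had 10.81, 10.75 and 10.39 at 12 h and 10.20, 10.44 and 10.27 at 24 h. Col1a2 changed by −0.54 ± 0.10 (SE, adjusted p = 6.45e-05) at 12 h and by −0.89 ± 0.10 (SE, adjusted p = 5.31e-08) at 24 h. In the 12 h group, replicate 9 lay below the other arrays for both chains. Col3a1 had 9.74, 9.71 and 9.74 at 12 h and 9.32, 9.44 and 9.35 at 24 h. Col3a1 changed by −0.84 ± 0.08 (SE, adjusted p = 7.81e-10) at 24 h and Col5a2 by −0.93 ± 0.07 (SE, adjusted p = 4.83e-11). Col5a2 had 8.32, 8.23 and 8.11 at 12 h and 8.03, 7.99 and 7.95 at 24 h. At 24 h the arrays of these 4 genes lay below all steady 600 arrays and above all steady 900 arrays. Those of Col5a1, Col5a3, Col8a1, Col11a1 and Col12a1 did so too. The share of all genes placed in this way was not counted.

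Col5a1 had 7.82, 7.84 and 7.57 at 12 h and 7.01, 7.11 and 7.12 at 24 h. Col12a1 had 8.57, 8.84 and 8.64 at 12 h and 6.92, 7.49 and 6.94 at 24 h. Neither passed the test against steady 600 at 12 h (0.05, 95% interval −0.14 to 0.25, and 0.02, 95% interval −0.27 to 0.31), and at 24 h Col5a1 had changed by −0.61 ± 0.10 (SE, adjusted p = 1.14e-05) and Col12a1 by −1.55 ± 0.14 (SE, adjusted p = 7.24e-10). Col8a1 had 8.02, 8.23 and 8.06 at 12 h and 6.95, 7.10 and 6.96 at 24 h. Col8a1 changed by −1.20 ± 0.09 (SE, adjusted p = 1.05e-11) at 24 h. Col11a1 had 10.17, 10.23 and 10.12 at 12 h and 8.89, 8.97 and 8.97 at 24 h. Col11a1 changed by −0.15 at 12 h (adjusted p = 0.26, and 0.016 without steady 600 replicate 1, with 0.016 to 0.954 over its alternatives) and by −1.38 ± 0.10 (SE, adjusted p = 6.59e-12) at 24 h, when it was still 2.04 ± 0.10 (SE, adjusted p = 5.74e-15) above steady 900. Col5a3 had 7.03, 7.10 and 6.74 at 12 h and 6.59, 6.71 and 6.73 at 24 h. The change of Col5a3 at 24 h was −0.27 ± 0.10 (SE, adjusted p = 0.041). The call of Col5a3 was lost with quantile normalization or median centring, or without steady 600 replicate 1, 2 or 3 or 600-to-900 24 h replicate 1, 2 or 9 (log2 changes −0.29 to −0.22, adjusted p = 0.0536 to 0.16, with 0.0203 to 0.16 over its alternatives).

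Col4a3 had 8.68, 8.84 and 8.46 at 12 h and 9.23, 9.43 and 9.19 at 24 h. Col4a4 had 8.56, 8.55 and 8.33 at 12 h and 9.32, 9.35 and 9.13 at 24 h. At 24 h both were above every steady 600 array, by 1.34 ± 0.10 (SE, adjusted p = 1.68e-11) and 1.29 ± 0.10 (SE, adjusted p = 2.1e-11). They were also above every steady 900 array, by 0.61 ± 0.10 (SE, adjusted p = 4.22e-05) and 0.33 ± 0.10 (SE, adjusted p = 0.0161). The call of Col4a4 was lost without steady 900 replicate 3 or 600-to-900 24 h replicate 1 or 2 (log2 changes 0.28 to 0.31, adjusted p = 0.0659 to 0.0923, with 0.00987 to 0.0923 over its alternatives). Col4a1 had 10.001, 10.01 and 9.52 at 12 h and 9.53, 9.87 and 9.62 at 24 h. Col4a1 had no call against steady 600 (0.08 at 12 h and −0.09 at 24 h) and was 0.70 ± 0.12 (SE, adjusted p = 0.000122) above steady 900 at 24 h.

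The 2 steps were compared at 12 and 24 h, with the change from 600 to 900 mosmol/kg set against the change from 300 to 600 mosmol/kg. The difference is the log2 change over steady 600 minus the log2 change over steady 300. At 12 h 2 collagen genes had a more positive change after the step to 900 (6.18% of all genes) and none a more negative one (7.25%). At 24 h 2 had a more positive change (7.48%) and 1 a more negative one (5.46%). For Col11a1 at 24 h the changes were −1.38 ± 0.10 after the step to 900 and 0.17 ± 0.10 after the step to 600, a difference of −1.55 ± 0.14 (SE, adjusted p = 4.45e-09). Col8a1 changed by −0.10 ± 0.09 after the step to 900 and by −0.74 ± 0.09 after the step to 600 at 12 h, a difference of 0.64 ± 0.12 (SE, adjusted p = 0.000483). At 24 h it changed by −1.20 ± 0.09 and −1.80 ± 0.09, a difference of 0.60 ± 0.12 (SE, adjusted p = 0.00094). Col4a3 changed by 0.72 ± 0.10 after the step to 900 and by 0.27 ± 0.10 after the step to 600 at 12 h, a difference of 0.45 ± 0.14 (SE, adjusted p = 0.033). At 24 h the changes were 1.34 ± 0.10 and 0.87 ± 0.10, a difference of 0.47 ± 0.14 (SE, adjusted p = 0.0246). The 12 h difference of Col4a3 was lost with a fit to only the arrays compared, or without steady 300 replicate 1 or 2, steady 600 replicate 2, 300-to-600 12 h replicate 1 or 3 or 600-to-900 12 h replicate 1 or 2 (log2 changes 0.36 to 0.45, adjusted p = 0.0595 to 0.116, with 0.00565 to 0.116 over its alternatives). The 24 h difference was lost without steady 300 replicate 1 or 2, steady 600 replicate 2, 300-to-600 24 h replicate 3 or 600-to-900 24 h replicate 2 (log2 changes 0.38 to 0.45, adjusted p = 0.0582 to 0.0956, with 0.00769 to 0.0956 over its alternatives). The differences of the type I chains at 24 h did not pass the test after adjustment, 0.28 for Col1a1 (95% interval −0.10 to 0.67, adjusted p = 0.39) and 0.39 for Col1a2 (95% interval 0.10 to 0.68, adjusted p = 0.0705). That of Col1a2 passed the test with cyclic loess, with a filter on dim genes, with a trended robust variance and in a fit to only the arrays compared (adjusted p = 0.019 to 0.0469, with 0.019 to 0.19 over its alternatives).

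**Figure D4:**
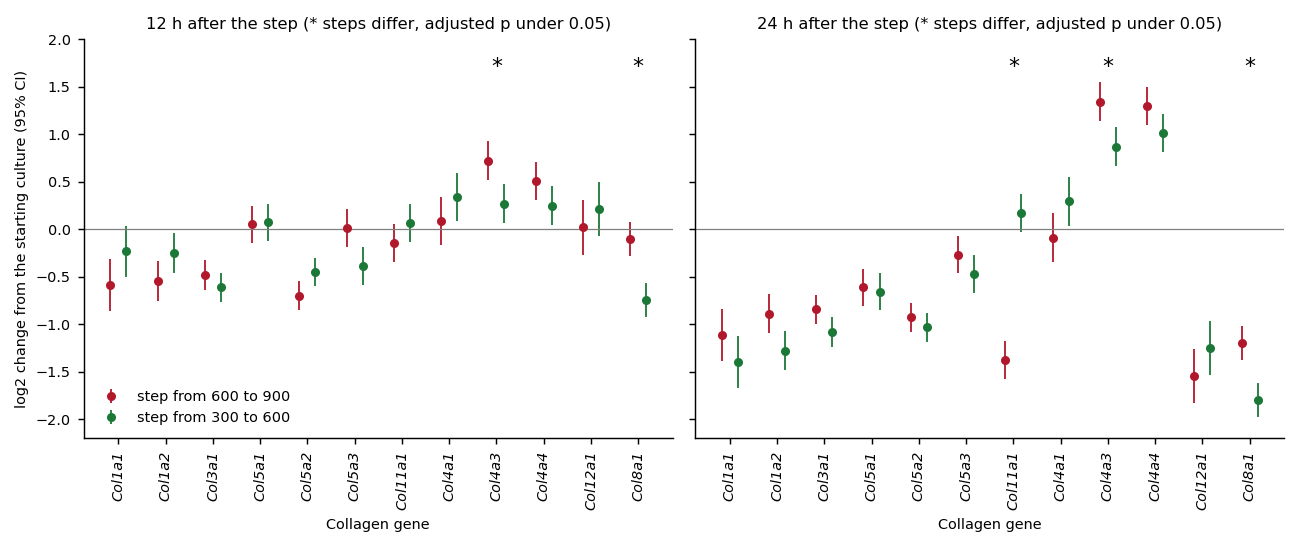
Log2 change of collagen genes with 95% intervals after the step from 600 to 900 mosmol/kg and after the step from 300 to 600 mosmol/kg, at 12 and 24 h, each against its own steady group. Col11a1 at 24 h stands apart, with −1.38 after the step to 900 and 0.17 after the step to 600. Asterisks mark differences between the steps that passed the test.

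In cells moved back from 900 to 300 mosmol/kg for 24 h, Col11a1 rose, the collagen IV genes fell, and 7 of the 10 fibrillar genes had no call. Against steady 900, 1 of 25 genes rose (19.3% of all genes) and 5 fell (18.5%). Col11a1 had 7.997, 8.02 and 7.91, above every steady 900 array, 1.08 ± 0.10 (SE, adjusted p = 5.89e-10) against steady 900, and −3.61 ± 0.10 (SE, adjusted p = 8.48e-22) against steady 300. Col4a3 had 6.999, 6.79 and 6.83 and Col4a4 7.55, 7.34 and 7.42, −1.80 ± 0.10 (SE, adjusted p = 2.84e-14) and −1.50 ± 0.10 (SE, adjusted p = 6.71e-13) against steady 900. Both were below every steady 600 and steady 900 array and above every steady 300 array. Col3a1 had 7.81, 7.83 and 7.70, with a change of −0.54 ± 0.08 (SE, adjusted p = 1.4e-06). Col1a1 had 7.99, 7.95 and 7.95 and Col1a2 8.75, 8.79 and 8.78, and their changes against steady 900 did not pass the test (−0.20, 95% interval −0.47 to 0.07, and −0.16, 95% interval −0.37 to 0.05). Col5a1 had 6.33, 6.37 and 6.48, Col12a1 6.59, 6.74 and 6.56 and Col8a1 6.25, 6.41 and 6.55, also without a call against steady 900. The change of Col1a1 passed the test in a fit to only the arrays compared (adjusted p = 0.0291, with 0.0291 to 0.398 over its alternatives). That of Col12a1 passed the test in a fit to only the arrays compared (adjusted p = 0.0424, with 0.0424 to 0.426 over its alternatives). Col4a1 had 8.67, 8.70 and 8.59 and Col5a2 6.91, 6.91 and 6.93, with changes of −0.32 ± 0.12 (SE, adjusted p = 0.0423) and −0.19 ± 0.07 (SE, adjusted p = 0.044). The call of Col4a1 was lost with quantile normalization or median centring, or without steady 900 replicate 1, 2 or 3 or 900-to-300 24 h replicate 1, 2 or 9 (log2 changes −0.35 to −0.29, adjusted p = 0.0521 to 0.12, with 0.00343 to 0.12 over its alternatives). The call of Col5a2 was lost with quantile normalization, median centring or cyclic loess, or without steady 900 replicate 1, 2 or 3 or 900-to-300 24 h replicate 1, 2 or 9 (log2 changes −0.20 to −0.16, adjusted p = 0.0633 to 0.134, with 0.0265 to 0.134 over its alternatives).

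Against steady 300, the cells returned to 300 mosmol/kg for 24 h had 15 lower collagen genes (22.2% of all genes) and 2 higher ones (20.4%). Col1a1 was 9.75-fold lower, −3.29 ± 0.13 (SE, adjusted p = 3.96e-18), and Col4a4 was 3.01-fold higher, 1.59 ± 0.10 (SE, adjusted p = 4.35e-14). Of the fibrillar genes 9 of 10 were lower, with a median log2 change of −2.03 where all genes had −0.02. Fibroblast markers were lower in 15 of 19 against steady 300, with a mean log2 level of 6.29 to 6.33, against 7.91 to 7.96 in steady 300. Against steady 900, 4 of the 19 rose and 1 fell, where 19.3% of all genes rose and 18.5% fell. Of 12 leukocyte markers 0 rose and 7 fell against steady 900. Their part was not tested.

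Over all 10 groups the order of the levels differed between genes. Col1a1 was highest in 300-to-600 at 3 h (mean 11.37), steady 300 (11.25) and 300-to-600 at 12 h (11.02). Differences between neighbours in this order did not pass the test, but Col1a1 fell at 12 h against 3 h (−0.35). That call was lost in 5 alternatives (log2 changes −0.35 to −0.18, adjusted p = 0.0522 to 0.293). Col1a1 was lowest in steady 900 (8.16) and 900-to-300 (7.96). The difference of these groups did not pass the test either, although their arrays did not overlap. Col3a1 was highest in steady 600 (10.21) and lowest in 900-to-300 (7.78), with a difference between that group and its neighbour steady 900. Col11a1 had 5 groups at the top that could not be separated, the 4 times of 300-to-600 and steady 300, at 11.58 to 11.76. Steady 600 (10.32) and 600-to-900 at 12 h (10.18) followed, and their difference did not pass the test. Then came 600-to-900 at 24 h (8.94), 900-to-300 (7.98) and steady 900 (6.90), each below the one before. Col4a4 was ordered 600-to-900 at 24 h (9.27), steady 900 (8.94), 600-to-900 at 12 h (8.48), steady 600 (7.97) and 900-to-300 (7.44). Next were 48 h (6.99) and 24 h (6.86) of 300-to-600, whose difference did not pass the test. Last were 3 h (6.38) and 12 h (6.10) of that step and steady 300 (5.85). Col4a1 was highest in 300-to-600 at 3 h (10.75) and lowest in 900-to-300 (8.65).

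Genes that act on collagen outside the collagen family were followed as lists, with values for the 4 members of each list with the smallest adjusted p in steady 900 over steady 300. In that comparison 20.2% of all genes rose and 22.3% fell. Of 21 genes of procollagen modification and folding, 2 rose and 18 fell in steady 900 (median log2 change −0.74, against 0.00 over all genes). Serpinh1, the collagen chaperone of the endoplasmic reticulum, changed by −2.05 ± 0.08 (SE, adjusted p = 1.11e-18), P4ha2, a prolyl 4-hydroxylase subunit, by −1.51 ± 0.07 (SE, adjusted p = 1.98e-16), and Creb3l1, a transcription factor that acts on secretory and collagen genes, by −3.23 ± 0.17 (SE, adjusted p = 5.78e-16). P3h2, a prolyl 3-hydroxylase, rose by 2.41 ± 0.08 (SE, adjusted p = 2.74e-20). Of 11 genes of processing and cross-linking, 1 rose and 9 fell (median log2 change −1.86, against 0.00 over all genes). The lysyl oxidases Lox, Loxl1 and Loxl2, which cross-link collagen, changed by −2.94 ± 0.12, −3.44 ± 0.12 and −3.20 ± 0.08, and their relative Loxl4 by 2.31 ± 0.09 (SE). The adjusted p of these 4 were 1.09e-18, 7.17e-20, 6.05e-23 and 1.71e-18.

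Of 10 collagen receptors, 1 rose and 7 fell in steady 900 against steady 300 (median log2 change −0.70, against 0.00 over all genes). Of all genes 20.2% rose and 22.3% fell. Ddr2, a receptor tyrosine kinase for fibrillar collagen, changed by −3.20 ± 0.10 (SE, adjusted p = 3.84e-21). The integrin chains Itga11 and Itga1, which bind collagen, changed by −2.41 ± 0.11 (SE, adjusted p = 4.66e-17) and −1.29 ± 0.09 (SE, adjusted p = 2.57e-13), and Mrc2, an endocytic collagen receptor, by −1.07 ± 0.10 (SE, adjusted p = 2.51e-10). Of 15 collagen-binding proteoglycans and fibril regulators, 1 rose and 7 fell (median log2 change −0.20, against 0.00 over all genes). Fbln2, fibulin 2, changed by −4.11 ± 0.11 (SE, adjusted p = 1.16e-22), Fn1, fibronectin, by −3.35 ± 0.10 (SE, adjusted p = 1.21e-21), Thbs1, thrombospondin 1, by −1.75 ± 0.06 (SE, adjusted p = 2.27e-19), and Bgn, the proteoglycan biglycan, by −2.04 ± 0.08 (SE, adjusted p = 1.96e-18).

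Of 12 other basement membrane components, 3 rose and 3 fell in steady 900 against steady 300 (median log2 change −0.05, against 0.00 over all genes). These counts lie near the shares of all genes, of which 20.2% rose and 22.3% fell. Tinagl1, a tubular basement membrane glycoprotein, changed by 2.15 ± 0.09 (SE, adjusted p = 1.3e-17), Lamb2, the laminin beta-2 chain, by 1.17 ± 0.09 (SE, adjusted p = 2.09e-12), and Fras1, an epithelial basement membrane protein, by 1.56 ± 0.16 (SE, adjusted p = 1.3e-09). Pxdn, the peroxidase that cross-links collagen IV, changed by −2.25 ± 0.25 (SE, adjusted p = 8.62e-09), downward like Col4a1. Of 16 genes of TGF-beta signalling, the pathway best known to raise collagen expression, 3 rose and 9 fell (median log2 change −0.38, against 0.00 over all genes). The count of increases lies near the share of all genes that rose. The ligand gene Tgfb2 changed by −2.97 ± 0.14 (SE, adjusted p = 5.04e-17), Ltbp1, which binds latent TGF-beta, by −2.38 ± 0.10 (SE, adjusted p = 5.63e-18), and Ccn2, a matricellular protein induced by TGF-beta, by −2.01 ± 0.07 (SE, adjusted p = 9.9e-20). Tgfbr3, the co-receptor betaglycan, rose by 2.91 ± 0.13 (SE, adjusted p = 1.74e-17).

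In the cells moved from 900 to 300 mosmol/kg, some genes that were low in steady 900 rose within 24 h. Over the same comparison 19.3% of all genes rose and 18.5% fell, and several of the list counts lie near those shares. Of the TGF-beta genes 5 rose and 4 fell, with Tgfb2 at 1.32 ± 0.14 (SE, adjusted p = 8.32e-09), Ccn2 at 1.29 ± 0.07 (SE, adjusted p = 2.3e-14) and Tgfbr3 at −1.55 ± 0.13 (SE, adjusted p = 1.04e-10). Of the 15 collagen-binding genes 5 rose and 3 fell, with Fn1 at 1.02 ± 0.10 (SE, adjusted p = 1.77e-09) and Thbs1 at 0.84 ± 0.06 (SE, adjusted p = 1.8e-11). Of the 21 modification genes 4 rose and 8 fell, and Serpinh1 changed by 0.54 ± 0.08 (SE, adjusted p = 3.48e-06). Col1a1, Col1a2 and Col5a1 had no call. Of the processing genes 4 rose and 1 fell, of the receptors 0 rose and 3 fell and of the other basement membrane genes 2 rose and 5 fell. Lamb2 and Fras1 also fell, with log2 changes of −0.96 ± 0.09 (SE, adjusted p = 4.94e-10) and −1.33 ± 0.16 (SE, adjusted p = 6.44e-08).

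At 24 h after the change from 300 to 600 mosmol/kg, 13 of the 21 modification genes, 7 of the 11 processing genes, 2 of the 10 receptors and 5 of the 15 collagen-binding genes were lower than in steady 300, where 13% of all genes were. Higher were 1, 1, 1 and 0 of these lists (9.4% of all genes). Of the other basement membrane genes 5 rose and none fell. P3h2 changed by 1.73 ± 0.08 (SE, adjusted p = 9.68e-16) and Tinagl1 by 0.71 ± 0.09 (SE, adjusted p = 9.23e-07), in the direction of Col4a3 and Col4a4. Itga11 changed by −1.84 ± 0.11 (SE, adjusted p = 1.95e-13) and Lox by −1.22 ± 0.12 (SE, adjusted p = 2.2e-09), in the direction of Col1a1. Ddr2 changed by 0.11 (adjusted p = 0.491) at that time. At 24 h after the change from 600 to 900 mosmol/kg, against steady 600, 4 rose and 7 fell of the modification genes, 1 rose and 8 fell of the processing genes, 1 rose and 9 fell of the collagen-binding genes and 2 rose and 10 fell of the 16 TGF-beta genes, where 11.2% of all genes rose and 14.7% fell. Pxdn changed by −2.07 ± 0.25 (SE, adjusted p = 1.47e-07) and Fn1 by −1.44 ± 0.10 (SE, adjusted p = 2.91e-12).

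**Figure D5:**
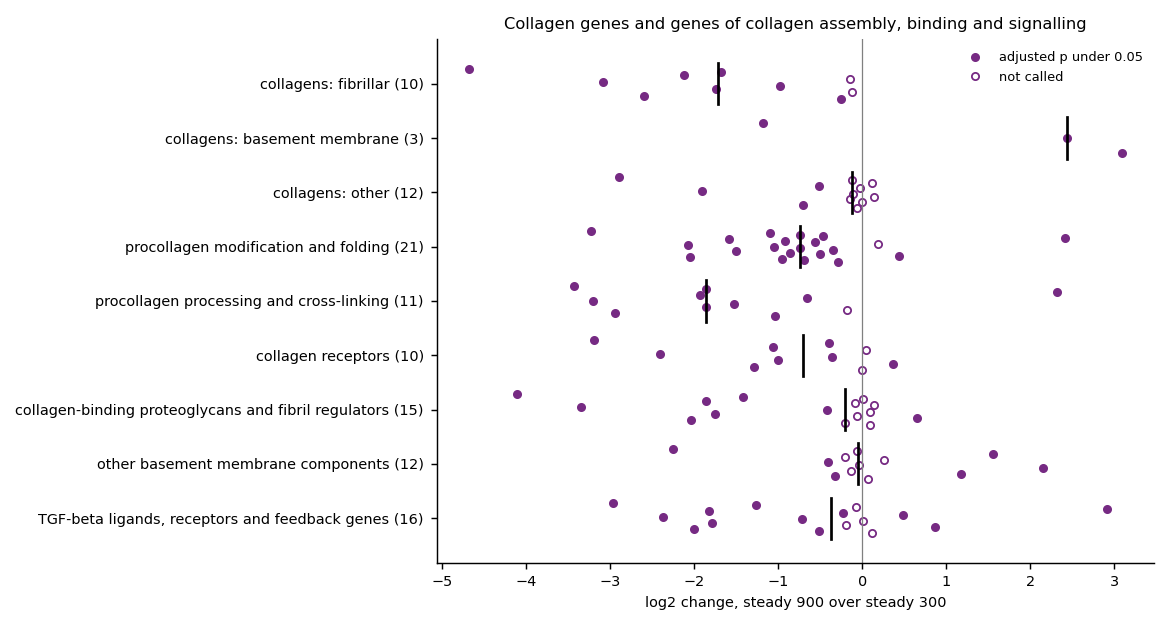
Log2 change in steady 900 over steady 300 of each gene (points) of the 3 collagen classes and the 6 pathway lists, with the number of genes in parentheses, filled where adjusted p was under 0.05, and the list median as a vertical bar. The medians of the fibrillar collagens (−1.71) and of the processing and cross-linking genes (−1.86) lie farthest below 0.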

How the data were processed

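Total RNA of rat primary IMCD cells was hybridised to 30 Affymetrix Rat Gene 1.0 ST arrays. The deposited values are log2 signals that the authors made with RMA (background correction, scaling between arrays and summary per probe set), per the submitters' processing notes. The RMA software is not given in the sources used here. RMA flattens low and high signals, so changes of dim and very bright genes can be understated.

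Of 29170 probe sets, 15310 carry 1 gene symbol in the platform annotation, 323 several and 13537 none listed. Each of 14506 genes was represented by the brightest of its single-symbol probe sets, by the mean of all arrays. Col6a4 had 3 such probe sets. Samples were grouped by title, and the columns were matched to samples by the sample identifier in the column name.

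The tests were run in limma 3.58.1 under R 4.3.3 (lmFit and eBayes, all 30 arrays and a mean for each group), with Benjamini-Hochberg adjustment over the 14506 genes and a threshold of 0.05. The script was tested on simulated data. Nothing in the labels says that replicates were separate cultures or animals. The p-values then rest on a spread that may be technical only, and 3 arrays a group limit the precision.

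The members, lists and tests were chosen with earlier results of these data known, and no list is independent evidence of its direction. The rule for named members was types I, III and V, Col11a1, collagen IV and the 8 other types with the widest range of group means. The plots show every array of all 25 genes. Pathway genes named are the 4 per list with the smallest adjusted p in steady 900 over steady 300. Col2a1, Col11a2, Col27a1, Postn and Thy1 were named after their values were seen.

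Replicate numbers showed little pairing of the samples. Over 114 pairs of equal number in different groups, the median correlation of deviations from the group means was 0.0118 (−0.126 to 0.238), with 11 pairs over 0.1. Over 291 pairs of different number the median was −0.00837, with 20 pairs over 0.1. A median over all groups cannot exclude pairing in some of them. Alternatives were quantile normalization, centring of each array on its median, cyclic loess, a filter at the 30th percentile of gene means, averaging the probe sets of a gene, a trended robust variance, the replicate number as a block, a fit to only the arrays compared, and leaving out each replicate. Ranges of adjusted p over alternatives in the report leave out the block, whose results are given with the processing alternatives. Upstream sequences come from the RefSeq promoter table of GRCr8, which held 20 of the 25 genes. The build of the array is not stated, so no other coordinates are given.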

Additional observations from a re-analysis of the deposited data

Results flagged for a closer look

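The change of 3 collagen genes differed between the step from 600 to 900 mosmol/kg and the step from 300 to 600 mosmol/kg, by limma's test of the difference itself over 14506 genes. For Col11a1 at 24 h the difference was −1.55 ± 0.14 (SE, adjusted p = 4.45e-09), with −1.38 after the step to 900 and 0.17 after the step to 600. All 3 arrays of the 600-to-900 24 h group lay below every steady 600 array. For Col8a1 the difference was 0.64 ± 0.12 (SE, adjusted p = 0.000483) at 12 h and 0.60 ± 0.12 (SE, adjusted p = 0.00094) at 24 h, with the more negative change after the step to 600 at both times. For Col4a3 it was 0.45 ± 0.14 (SE, adjusted p = 0.033) at 12 h and 0.47 ± 0.14 (SE, adjusted p = 0.0246) at 24 h, with a larger increase after the step to 900. Both calls of Col4a3 were lost when single arrays were left out. In all, 25 collagen genes were tested at each of the 2 times.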

How the results depend on the processing

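Of 284 called changes of single collagen or pathway genes, 40 lost their call in at least 1 alternative, and 38 changes that were not called passed the threshold in at least 1. No called change turned its sign. The counts of changed collagen genes stayed within 1.5 times in the alternatives tried, with these exceptions. For 300-to-600 12 h over steady 300 the count was 4 with median centring, in place of 7. For 12 h over 3 h of that step it was 7 in a fit to only the arrays compared, in place of 11. For the difference of the steps at 12 h it was 1 in a fit to only the arrays compared, in place of 2. Leaving out 1 replicate gave 8 to 12 genes for steady 600 over steady 300 (13 with all, 8 without steady 600 replicate 1), 4 to 6 for 300-to-600 12 h over steady 300, 7 to 12 for 12 h over 3 h (7 without 300-to-600 12 h replicate 2) and 1 to 3 for the difference of the steps at 12 h. The difference at 12 h was 1 without steady 600 replicate 2, 300-to-600 12 h replicate 3, or 600-to-900 12 h replicate 1 or 2. With the replicate number as a block, 13 genes changed in steady 600 over steady 300 and 15 in steady 900 over steady 300. In 900-to-300 over steady 900, 5 changed (6 without the block). The numbers showed little pairing of the samples. The block ended the calls of Col11a2 in 600-to-900 24 h over steady 900 (0.25, adjusted p = 0.058), of Col4a1 (−0.20, adjusted p = 0.181) and Col5a2 (−0.15, adjusted p = 0.136) in 900-to-300 over steady 900, and of Col5a3 in 600-to-900 24 h over steady 600 (−0.24, adjusted p = 0.0877). It added calls of Col12a1 in 900-to-300 over steady 900 (0.34, adjusted p = 0.0374), of Col1a2 (−0.25, adjusted p = 0.0346) at 12 h and Col4a1 (0.33, adjusted p = 0.0275) at 48 h of 300-to-600 over steady 300, of Col14a1 at 24 h over 12 h of that step (−0.30, adjusted p = 0.0395), and of the step differences of Col5a3 at 12 h (0.43, adjusted p = 0.0386) and Col1a2 at 24 h (0.48, adjusted p = 0.0158). Scaling moved the median change of all genes by at most 0.086 on the log2 scale. Probe sets near the dim level, such as that of Col14a1, carry little signal.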
